A study of Zea mays with 74 samples.

Results

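Zm00001d037968, Zm00001d017718 and Zm00001d043762 are 3 maize genes in which a region listed as exonic showed the largest increases in CG methylation from teosinte to modern maize. They were chosen from the study's list of 229 genes with an exonic CG differentially methylated region (DMR), whose 227 DMRs were each matched to 1 of the 1545 CG DMRs deposited for teosinte against maize. That list was recognised by its content, since the titles of 2 of the paper's gene lists appear to be exchanged, and the word exonic rests on this reading throughout. Exon positions were not at hand, so how much of each DMR lies in exons was not determined. The choice used the values of the authors' population means, maize minus teosinte, so the increase itself is the rule and is not tested. The means come from a table of the paper, served only for the choice, and are not printed here. The genes next in that order were Zm00001d033632 (DMR on chromosome 1 from 269309532 to 269309978) and Zm00001d039259 (chromosome 3 from 704088 to 704251).

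The study compared 20 plants of teosinte (Zea mays ssp. parviglumis), the wild ancestor of maize, 17 Mexican landraces, which are open-pollinated farmer varieties, and 14 modern maize inbred lines. Teosinte and landrace plants were grown in a greenhouse, and leaf tissue of seedlings was sequenced for each genome (WGS) and, after bisulfite conversion, for its methylation (WGBS), with 74 libraries in all. The sequence data of the inbred lines were published before, so the study of origin and the population cannot be told apart where maize is one side. All 3 populations entered without a treatment, and each comparison contrasts whole populations, so the deposited regions have no value for a single plant and no spread between plants can be given.

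Plants methylate cytosines in 3 contexts, CG, CHG and CHH, with H standing for A, C or T. CG methylation is copied by a maintenance enzyme after each replication, CHG methylation is kept by chromomethylases that bind methylated histones, and CHH methylation is set anew in each cell cycle. Many broadly expressed plant genes carry CG methylation alone within the gene body, whereas transposons and silenced genes usually carry CG and CHG methylation together. Which contexts and which comparisons share a region is therefore the first question asked of each gene below. A DMR marks a called difference and gives no level. A missing CHG DMR thus does not tell whether CHG methylation was high or low in both populations, and neither kind of methylation was assigned to a gene. No symbol or function is given for the 3 genes, since 0 of the 3 identifiers were found in the RefSeq gene table of another maize assembly. Positions are those of B73 AGPv4, with starts printed as counted from 1.

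The 3 genes showed different patterns. The choice gives an increase in maize for the 3 exonic CG DMRs only, and the direction of every other DMR named below was not analysed here. Zm00001d037968 had 1 short CG DMR with a CHG DMR of nearly the same extent. Zm00001d017718 had long CG and CHG DMRs over the same stretch, in maize and also in landraces against teosinte. Zm00001d043762 had a run of 3 CG DMRs with no CHG, CHH or landrace DMR called at the gene. In each gene the exonic DMR lay in the 3′ part of the gene model. The share of all exonic DMRs that lie in that part was not computed, so this is a description of the 3 only. None of the 3 lay in a selective sweep.

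**Figure D1:**
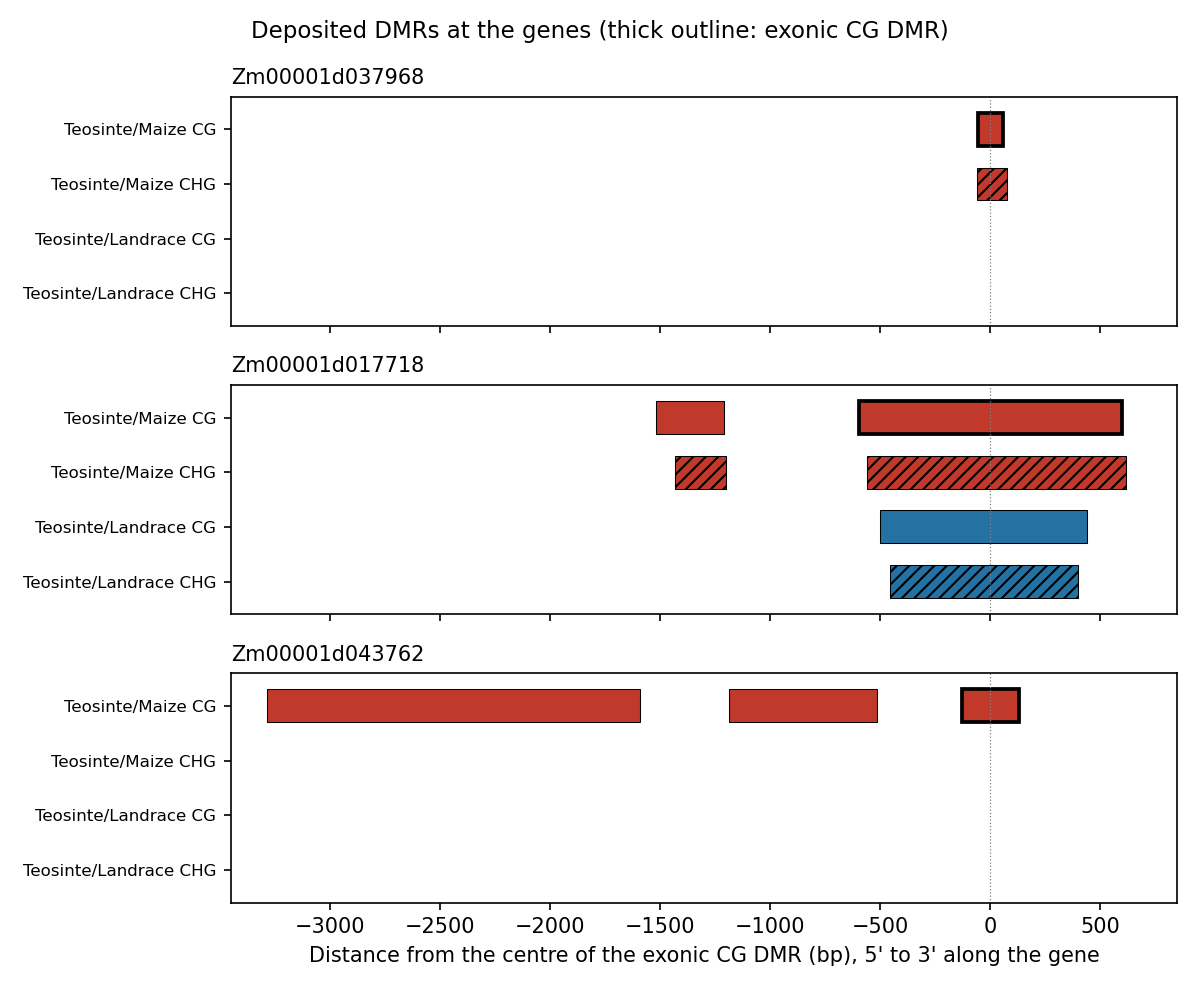
Deposited DMRs at Zm00001d037968, Zm00001d017718 and Zm00001d043762, as bars of their length against the distance in bp from the centre of the exonic CG DMR, 5′ to 3′ along each gene. Rows and colours mark the comparison, hatching marks CHG and a thick outline marks the exonic DMR; the bars stack in 4 rows at Zm00001d017718, pair at Zm00001d037968 and stay in the CG row at Zm00001d043762.

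Zm00001d037968 lies on the minus strand of chromosome 6. Its exonic CG DMR ran from 143834832 to 143834948, in the 3′ part of the gene model. At 117 bp it ranked 1465 by length among the 1545 teosinte-maize CG DMRs, and 5.0% of them were shorter. The only other DMR at the gene was a teosinte-maize CHG DMR of 139 bp, from 143834813 to 143834951. It held the whole CG DMR and reached 19 bp beyond it at the lower end and 3 bp beyond it at the upper end. Full cover was common, at 292 of the 769 teosinte-maize CG DMRs that overlapped a teosinte-maize CHG DMR. The summed offset of the edges was thus 22 bp, against a median of 160 bp over the same 769, and 6.4% of those pairs were as close. Offsets were not scaled to length, so a small offset between short regions does not show an unusually close match. Both regions were short for their context, since 5.9% of the 2372 teosinte-maize CHG DMRs were shorter than 139 bp.

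Around Zm00001d037968 no further DMR was found within 100 kb on either side. The nearest teosinte-maize CHH DMR was 103 kb away, and the next teosinte-maize CG DMR was 706 kb away. A landrace-maize CG DMR lay at that same distance of 706 kb. Between teosinte and landraces the nearest CG DMR was 2849 kb away and the nearest CHG DMR 5568 kb. Within 1 Mb on each side there were 8 other DMRs of any class, its own CHG DMR included. The median was 8 over all teosinte-maize CG DMRs and 7 over the exonic ones, of which 63.0% had as many or fewer.

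Zm00001d017718 lies on the plus strand of chromosome 5, and its exonic CG DMR ran from 205090057 to 205091249. This stretch of 1193 bp ranked 26 by length among the 1545 teosinte-maize CG DMRs, and 97.8% of the 227 exonic DMRs were shorter. It lay in the 3′ part of the gene model, and the study's gene model table also places it in the downstream flank of a neighbouring gene. A teosinte-maize CHG DMR of 1177 bp, from 205090093 to 205091269, shared 1157 bp with it, or 97.0% of the CG DMR. Such cover was ordinary, with a median of 97.7% over the 769 teosinte-maize CG DMRs that a teosinte-maize CHG DMR overlapped. The edges of the CHG DMR were shifted by 36 bp at the start and 20 bp at the end. Their summed offset was 56 bp, and 20.5% of the 769 pairs were as close.

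The same stretch of Zm00001d017718 also differed between teosinte and landraces. A teosinte-landrace CG DMR of 943 bp, from 205090151 to 205091093, lay wholly within the teosinte-maize CG DMR and covered 79.0% of it, against a median cover of 68.2% where such DMRs overlap. This teosinte-landrace CG DMR ranked 4 by length among the 431 of its class. A teosinte-landrace CHG DMR of 858 bp, from 205090196 to 205091053, lay in turn within the teosinte-landrace CG DMR and covered 71.9% of the exonic DMR. It ranked 43 among 590 teosinte-landrace CHG DMRs. The CG DMR was longer than the CHG DMR in both comparisons, and the maize regions were longer than the landrace regions in both contexts. A landrace DMR inside the maize DMR was common elsewhere too, at 188 of the 265 teosinte-maize CG DMRs that a teosinte-landrace CG DMR overlapped (70.9%). The comparisons share the teosinte plants, so the overlap is not an independent repeat. The direction of the landrace differences and of the teosinte-maize CHG difference was not analysed here.

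A second teosinte-maize pair lay farther 5′ within Zm00001d017718. The CG DMR of this pair had 307 bp, from 205089136 to 205089442, and ended 614 bp before the exonic DMR began. A CHG DMR of 233 bp, from 205089220 to 205089452, shared 223 bp with it. No teosinte-landrace DMR overlapped this second pair, unlike the exonic DMR. The 2 CG DMRs together held 1500 bp of a span of 2114 bp (71.0%). The second CG DMR is not on the exonic list.

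Between landraces and modern maize no DMR was called at Zm00001d017718. The nearest landrace-maize CG DMR was 384 kb away, and the nearest teosinte-maize CHH DMR was 109.5 kb away. Within 1 Mb on each side there were 16 other DMRs of any class, against a median of 8, of which 5 were those of the gene just described and 11 lay farther off. As many or fewer were found around 83.0% of all teosinte-maize CG DMRs and around 93.4% of the exonic ones.

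Zm00001d043762 lies on the minus strand of chromosome 3, and its exonic CG DMR ran from 209228805 to 209229061, in the 3′ part of the gene model. With 257 bp it was of ordinary length, longer than 34.5% of the teosinte-maize CG DMRs. A second teosinte-maize CG DMR of 674 bp followed in the 5′ direction of the gene, from 209229449 to 209230122, after a gap of 387 bp. The last and longest, of 1694 bp, ran from 209230526 to 209232219 after a gap of 403 bp and lay in the middle of the gene model. This one was the longest DMR at any of the 3 genes and ranked 6 by length among all 1545. Neither of these 2 is on the exonic list, so the exonic DMR is the shortest part of the run. Whether these 2 were gains or losses in maize was not analysed here.

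The 3 CG DMRs of Zm00001d043762 together held 2625 bp, or 76.9% of a span of 3415 bp. When teosinte-maize CG DMRs with gaps of at most 5 kb were joined, the 1545 formed 1470 runs, of which 1401 were single DMRs, 63 were pairs and 6 held 3 DMRs. By the bases in DMRs this run ranked 3 of 1470, and it was the highest of the 6 runs of 3, the next holding 1967 bp. No DMR of another context or comparison overlapped any part of it. In the other 5 runs of 3, between 1 and 3 of the DMRs were overlapped by another class.

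The neighbourhood of Zm00001d043762 was poor in DMRs. Its own 3 were the only ones of any class within 1 Mb on each side of the exonic DMR. In such a window 9.1% of all teosinte-maize CG DMRs and 15.9% of the exonic ones had 2 or fewer others. The nearest teosinte-maize CHG DMR was 1205 kb away and the nearest CHH DMR 2239 kb. The nearest CG DMR between teosinte and landraces was 3651 kb away, and between landraces and modern maize it was 2805 kb away. These classes are sparse, with 42 and 16 DMRs on chromosome 3. How far other teosinte-maize CG DMRs lie from them was not computed, so these 2 distances do not show a poor neighbourhood.

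**Figure D2:**
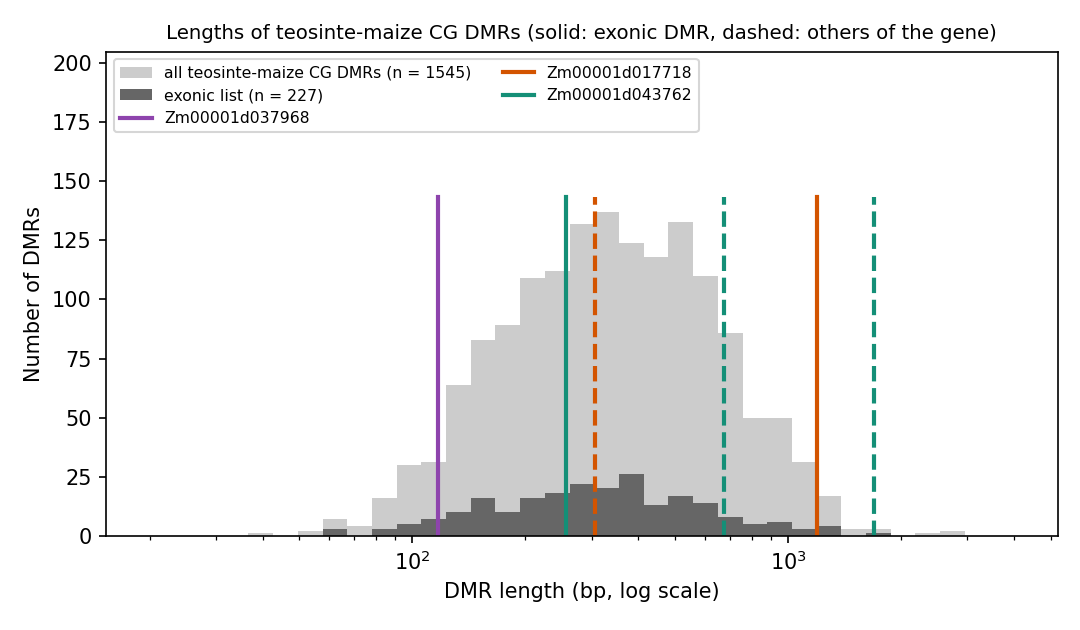
Number of DMRs against length in bp on a log scale, for all 1545 teosinte-maize CG DMRs (light) and the 227 exonic ones (dark). Vertical lines mark the teosinte-maize CG DMRs of the 3 genes, solid for the exonic DMR and dashed for the others; the exonic DMRs of 117, 257 and 1193 bp spread across the range, around the median of 333 bp, and the DMR of 1694 bp at Zm00001d043762 lies near the upper end.

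A teosinte-maize CHG DMR overlapped 2 of the 3 exonic DMRs, those of Zm00001d037968 and Zm00001d017718, and 49.8% of all 1545 teosinte-maize CG DMRs. Among the 227 exonic DMRs, to which the 3 belong, the share was 22.5%, against 54.5% of the 1318 others. DMRs that no other context or comparison overlapped made up 1 of the 3, 41.7% of all and 67.4% of the exonic DMRs. With 3 genes chosen on the CG difference, these counts are a description, and no test was made of the members against the rest.

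Landrace DMRs were at 1 of the 3. A teosinte-landrace CG DMR overlapped the exonic DMR of Zm00001d017718 and 17.2% of all teosinte-maize CG DMRs (14.5% of the exonic). A teosinte-landrace CHG DMR overlapped the same exonic DMR and 12.5% of all (7.93% of the exonic). The whole set found there, a teosinte-maize CHG, a teosinte-landrace CG and a teosinte-landrace CHG DMR over 1 teosinte-maize CG DMR, was seen at 118 of the 1545 (7.64%) and at 12 of the 227 exonic DMRs (5.29%). Landrace-maize CG DMRs overlapped 0 of the 3, 5.44% of all and 3.08% of the exonic, and landrace-maize CHG DMRs 0 of the 3, 3.17% of all and 1.76% of the exonic. CHH DMRs were at 0 of the 3. Of all teosinte-maize CG DMRs 0.712% were overlapped by a teosinte-maize CHH DMR (0.441% of the exonic), 0.0647% by a teosinte-landrace one (0.0% of the exonic) and 0.0% by a landrace-maize one, so such an overlap was rare in the whole table.

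Neighbouring teosinte-maize CG DMRs were at 2 of the 3. One or more others lay within 5 kb of the exonic DMRs of Zm00001d017718 and Zm00001d043762, which holds for 9.32% of all teosinte-maize CG DMRs and 9.25% of the exonic ones. For Zm00001d043762 there were 2 others, as for 0.906% of all and 0.881% of the exonic. With no other class within 5 kb as well, 3 of the 1545 were left (0.194%), 1 of them exonic (0.441%). These 3 are the DMRs of Zm00001d043762 itself, which form 1 run, and 0 lay elsewhere. The combined rule restates the pattern of this gene, so the count describes it and is no measure of how unusual it is.

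**Figure D3:**
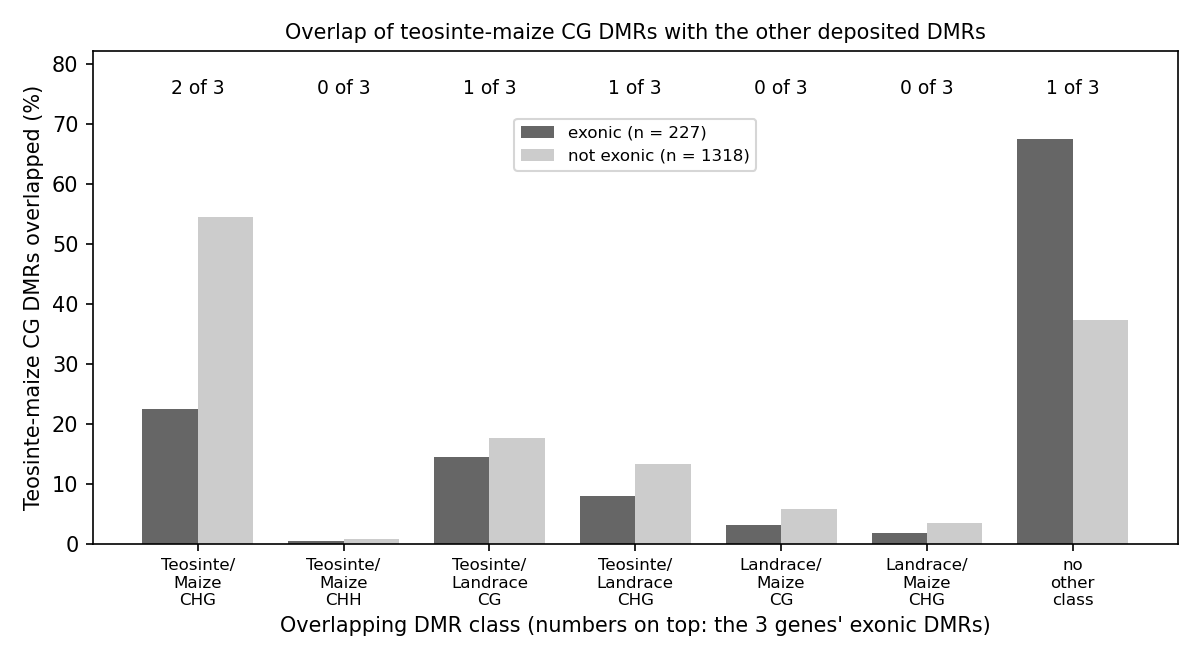
Share in % of teosinte-maize CG DMRs that each other class of DMR overlapped by at least 1 bp, for the 227 exonic DMRs (dark bars) and the 1318 others (light bars), with the count among the exonic DMRs of the 3 genes above. Teosinte-maize CHG DMRs overlapped 22.5% of the exonic and 54.5% of the other DMRs, and the last pair of bars gives the DMRs that no other class overlapped, 67.4% and 37.3%.

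Selective sweeps here are stretches that stood out in a scan of allele frequency differences between populations. The authors scored windows by XP-CLR, a composite likelihood without a fixed range, and kept the outliers. That cut goes by rank of the score, and whether a given sweep exceeds drift was not tested here. The deposited table holds 1330 teosinte-maize, 1355 teosinte-landrace and 1375 landrace-maize sweeps, with median scores of 77.2, 68.8 and 85.3. The exonic DMRs of the 3 genes lay in none of them. Of all teosinte-maize CG DMRs, 27.7% lay in a teosinte-maize sweep, 24.1% in a teosinte-landrace sweep, 22.5% in a landrace-maize sweep and 42.5% in any. For exonic DMRs the shares were 16.7%, 16.7%, 14.1% and 30.0% in the same order. Most single DMRs, and most single exonic DMRs, thus lay outside every sweep, as each of the 3 did. How often 3 DMRs would all lie outside was not computed.

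Of the 3, Zm00001d017718 was nearest to a sweep. A teosinte-maize sweep from 205120001 to 205215000 began 28.8 kb beyond the exonic DMR, on the 3′ side. Of all teosinte-maize CG DMRs 32.7% were as near to a teosinte-maize sweep, with a median distance of 197 kb, and of the exonic ones 22.0%, with a median of 384 kb. The score of this sweep was 62.5, rank 1220 of 1330. A landrace-maize sweep from 205225001 to 205285000 followed 10 kb after it, 134 kb from the DMR, with a score of 69.3 (rank 1116 of 1375), and 39.4% of all and 32.6% of the exonic DMRs were as near to one. No teosinte-landrace sweep was found within 1 Mb, and the nearest, from 208820001 to 209000000, was 3729 kb away with a score of 67.4 (rank 712 of 1355). As near to a teosinte-landrace sweep were 95.2% of all and 95.6% of the exonic DMRs. The gene thus had a teosinte-landrace DMR with no teosinte-landrace sweep within 1 Mb. Its nearest teosinte-maize and landrace-maize sweeps lay 28.8 and 134 kb off, distances that many DMRs share, and their scores were low in rank.

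Zm00001d037968 had sweeps of each comparison within 1 Mb. The nearest was a landrace-maize sweep from 143585001 to 143715000, 119.8 kb below the DMR, with a score of 88.4 (rank 628 of 1375). A teosinte-maize sweep from 144125001 to 144255000 began 290.1 kb above it, with a score of 67.5 (rank 973 of 1330). The teosinte-landrace sweep from 143410001 to 143515000 ended 319.8 kb below, with a score of 50.9 (rank 1291 of 1355). These 3 sweeps did not overlap each other. Of all teosinte-maize CG DMRs, 38.3% were as near to a landrace-maize sweep, 56.1% to a teosinte-maize sweep and 51.6% to a teosinte-landrace sweep. The shares of the exonic DMRs were 31.7%, 44.9% and 44.5% in the same order.

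Zm00001d043762 had no teosinte-maize sweep within 1 Mb. The nearest teosinte-maize sweep, from 208020001 to 208075000, was 1154 kb away with a score of 65.7 (rank 1053 of 1330), and 81.8% of all teosinte-maize CG DMRs and 77.5% of the exonic ones were as near to one. A landrace-maize sweep from 208415001 to 208525000 ended 704 kb away and had a score of 105, rank 349 of 1375. That was the highest rank among the nearest landrace-maize sweeps of the 3 genes. A teosinte-landrace sweep from 208430001 to 208540000 shared 95.0 kb with this landrace-maize sweep and ended 689 kb from the DMR. As near to a landrace-maize sweep were 69.8% of all and 70.5% of the exonic DMRs, and as near to a teosinte-landrace sweep 66.1% and 58.1%. The score of 49.7 of the teosinte-landrace sweep was among the lowest of the comparison, rank 1346 of 1355. Scores are the authors' and carry no error, and they were compared only within a comparison.

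**Figure D4:**
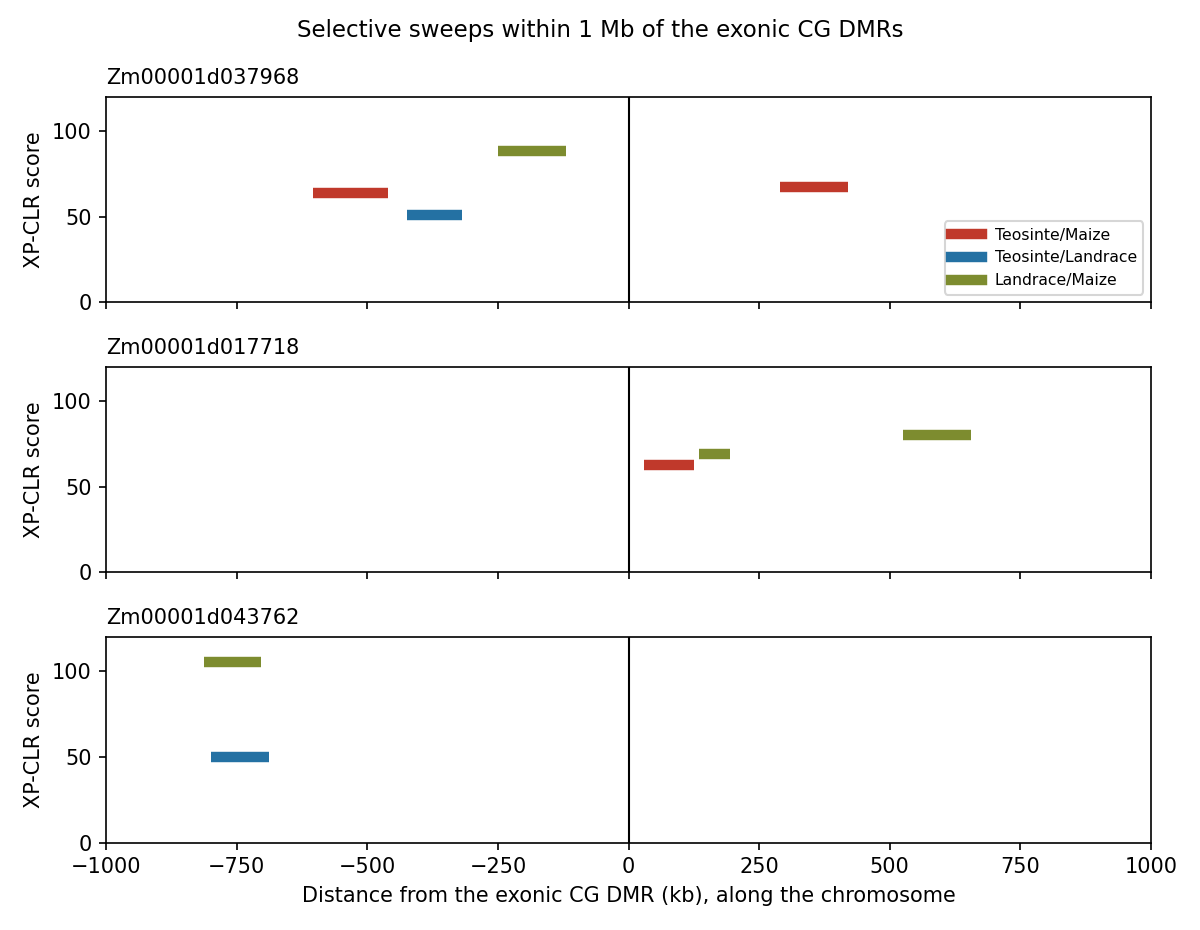
Selective sweeps within 1 Mb of the exonic CG DMR of each gene, as bars of their length against the distance in kb along the chromosome (0 is the DMR) and at the height of their XP-CLR score, coloured by comparison. No bar crosses the line at 0; the nearest begins 28.8 kb away at Zm00001d017718, and at Zm00001d043762 the bars end 689 and 704 kb away.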

How the data were processed

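WGBS and WGS were made from the 3rd leaf of 20 teosinte and 17 landrace plants, grouped by their labels. The authors aligned bisulfite reads by Bowtie2 against a B73 AGPv4 sequence into which each plant's own SNPs had been put, so that fewer reads are lost where plants differ, then extracted cytosines with Bismark and called DMRs between populations with metilene. BWA, Picard and GATK 4 are further tools in the submitters' processing notes. For each DMR the deposited table holds its position, its context and the populations compared, without a level. Differences under the authors' threshold are left out of it. The tables used here hold no depth. The paper gives an average coverage for WGS. It also reports slightly higher methylation levels in landraces and names lower sequencing depth as a possible reason. The part of depth in the DMR calls was not tested. The authors' XP-CLR score is given per sweep in the deposited sweep table.

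The exonic list, recognised by its content, and the gene models of the paper were joined to the deposited DMRs by chromosome, start and end. The paper's means served only to choose the genes, which are the 3 members given. Members and lists were chosen with earlier results of these data known. DMR starts were taken to count from 0, and overlap needed 1 bp. The flank was 5 kb. Windows of 100 kb and 1 Mb and the runs of DMRs were added after the tables had been seen. No test was made. Joins were tested on simulated regions of known layout. Python 3.11.15, numpy 2.4.6, pandas 2.3.3 and matplotlib 3.10.9 were used.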

Additional observations from a re-analysis of the deposited data

How the results depend on the processing

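The count of 4 DMRs over the exonic DMRs was the same when at least 50% of the exonic DMR had to be covered and when DMR starts were counted from 1. The count of 8 other DMRs near them was the same with flanks of 2 and 10 kb, and distances to sweeps taken from the midpoint of the DMR moved little, for example from 28.8 to 29.3 kb at Zm00001d017718. When only sweeps at or above the median score of their comparison were kept, still 0 of the 3 exonic DMRs lay in one, but most distances grew, since fewer sweeps were left. The nearest teosinte-maize sweep was then 2830 kb from Zm00001d037968, 1650.1 kb from Zm00001d017718 and 2129 kb from Zm00001d043762. The nearest teosinte-landrace sweep was 2830.1, 9284 and 4341 kb away in that order, and the landrace-maize sweep of Zm00001d017718 was 6525 kb away. The nearness of Zm00001d017718 to a sweep thus rests on sweeps of low score. With 50% cover required, the share of all teosinte-maize CG DMRs with a teosinte-maize CHH DMR was 0.324%. No paired analysis was possible because the results come from no test and the deposited regions hold no values of single plants. For the same reason no plant could be left out, and the effect of depth was not tested.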
